A study of Mus musculus with 4 samples.

Results

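The cells described here are the proliferating immune cells of the aged, amyloid-bearing mouse cortex. They are the 193 cells to which the authors gave the class Proliferating, of 15451 deposited cells, 14628 of which had a class. Cells came from mice of 18 months, were sorted for CD45, a surface protein of blood-derived cells and microglia, and were profiled by 10x Genomics 3′ single-cell RNA sequencing, in which unique molecular identifiers (UMIs) count RNA molecules. ADAM mice carried APP/PS1 with Axl-/- and Mertk-/-, and AD mice carried APP/PS1 alone. Both genotypes therefore share the APP/PS1 transgenes, which drive amyloid deposition, and no mice without them were analysed here. Each library pooled 2 cortices, and there were 2 libraries per genotype, described as biological replicates. The class held 63 cells in ADAM 1, 52 in ADAM 2, 38 in AD 1 and 40 in AD 2.

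A dividing cell first copies its DNA in S phase and then separates the copies in G2 and mitosis (M). Ki-67, encoded by Mki67, coats mitotic chromosomes, and topoisomerase II alpha, encoded by Top2a, untangles the DNA copies, so both RNAs accumulate late in the cycle. Microglia maintain themselves by local division and divide more around amyloid plaques, T cells divide after antigen contact, and neutrophils are made by dividing precursors that normally sit in bone marrow. Axl and Mertk are receptor tyrosine kinases that bind Gas6 and Protein S and serve in the uptake of dying cells.

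Many late-cycle genes share a short promoter element, the cell cycle genes homology region (CHR), which the repressor complex DREAM binds in resting cells. The RefSeq promoters of both class markers are shown because they carry this element, with CHR letters (TTTGAA, or its complement strand) in capitals. Each runs from 250 bases before to 50 after the annotated start, on the minus strand of GRCm38.p6, at chr7:135716330-135716629 for Mki67 and chr11:99024140-99024439 for Top2a.
Mki67: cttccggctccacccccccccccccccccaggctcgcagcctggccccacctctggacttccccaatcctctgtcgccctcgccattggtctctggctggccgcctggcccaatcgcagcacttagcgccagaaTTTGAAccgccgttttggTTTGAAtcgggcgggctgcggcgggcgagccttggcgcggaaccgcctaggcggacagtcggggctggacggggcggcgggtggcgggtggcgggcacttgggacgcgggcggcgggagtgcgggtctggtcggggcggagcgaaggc
Top2a: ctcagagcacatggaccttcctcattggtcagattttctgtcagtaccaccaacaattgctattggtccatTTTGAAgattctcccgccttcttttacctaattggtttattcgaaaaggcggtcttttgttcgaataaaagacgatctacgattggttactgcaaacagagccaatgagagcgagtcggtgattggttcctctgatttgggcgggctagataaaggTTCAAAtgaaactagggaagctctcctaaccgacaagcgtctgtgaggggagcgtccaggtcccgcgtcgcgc
CHR letters (TTTGAA or TTTAAA on either strand) were found in the promoters of 37 of 46 matched genes of a G2/M list (80.4%), in 9 of 30 matched genes of an S phase list (30.0%) and in 30.6% of the 27025 genes with a promoter sequence. The CCAAT letters, also searched on both strands, were found in 76.1% of the G2/M genes, 70.0% of the S phase genes and 41.1% of all. These matches describe letters and not bound sites.

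Most cells of the class carried cycling markers. The class and these markers come from the same cells, so this describes the class and is no independent check of its label. Of 10 cycling markers, which besides Mki67 and Top2a include the cyclin gene Ccnb1, the mitotic kinase gene Cdk1 and Birc5 (survivin), 3 or more had a UMI in 32 of 63 cells in ADAM 1, 45 of 52 in ADAM 2, 31 of 38 in AD 1 and 38 of 40 in AD 2. A UMI of Mki67 or Top2a was seen in 50.8% (exact 95% interval 37.9 to 63.6%), 86.5% (74.2 to 94.4%), 78.9% (62.7 to 90.4%) and 92.5% (79.6 to 98.4%) of cells of ADAM 1, ADAM 2, AD 1 and AD 2, at median depths of 11937, 15402, 6908 and 11378 UMIs. ADAM 1 stood below the other libraries. In the other classes the share ran from 0 of 40 endothelial cells, which allows up to 7.5%, to 5.22% of 115 B cells, and was 0.667% of 9293 microglia at a median of 5529 UMIs. Intervals and limits cover counting error only. In 47 of the 193 cells fewer than 3 cycling markers were found, 10 cells had exactly 2 and 7 had exactly 3. Among the 193 cells 1 carried a barcode found in more than 1 library (48 of all cells did). None carried a doublet mark, which is no check, because the 823 cells so marked have no class.

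Clustering the 193 cells without the cycle genes gave 8 clusters, each called here by a leading gene. The clusters were drawn on these same cells, so their leading genes describe them and are not tested. Names of the form X-like come from marker lists. The most frequent cells were T-like (63 cells) and microglia-like (58 cells), followed by neutrophil-like cells (16), an unnamed cluster led by Mpo (16) and 5 B-like cells. The remaining 35 cells formed a cluster led by Marco in which most cells lacked cycling markers. At least 3 cycling markers were found in 56 microglia-like and 47 T-like cells, the reverse of their order by all cells.

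**Figure D1:**
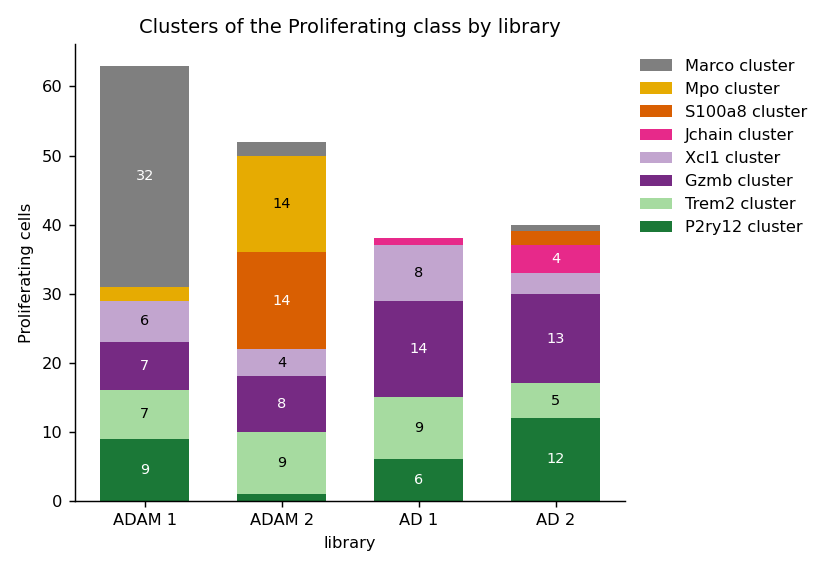
Number of Proliferating cells (vertical axis) in each cluster, stacked, for the 4 libraries (horizontal axis); numbers are printed for segments of 4 cells or more. The Marco cluster holds 32 of 63 cells of ADAM 1, and the Mpo and S100a8 clusters hold 14 cells each of ADAM 2.

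**Figure D2:**
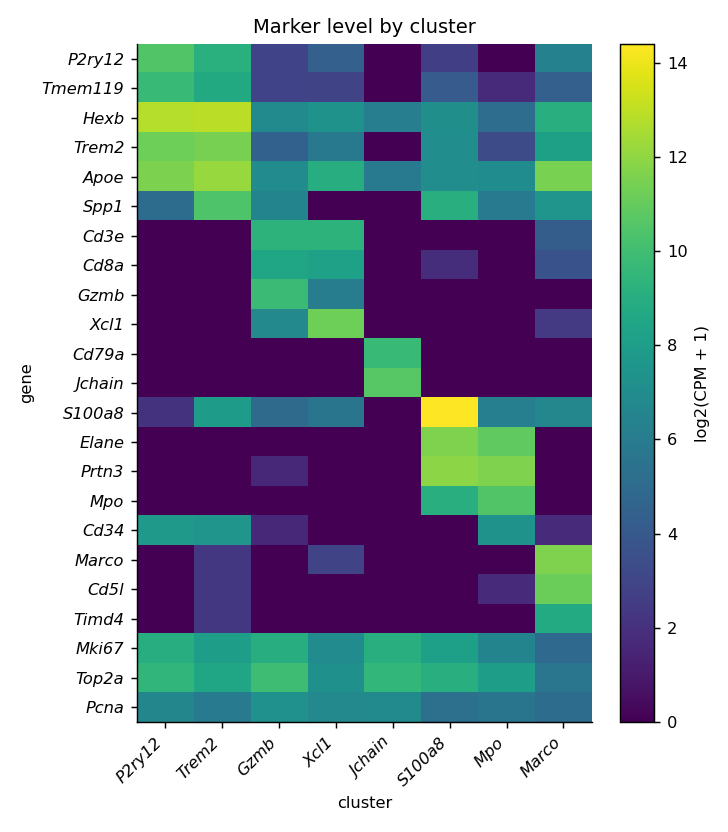
Level of marker genes (rows) in each cluster (columns) as log2(CPM + 1), CPM being UMI counts scaled to the summed UMIs of the cluster. Most markers are high in their own cluster, Cd34 is also seen in the P2ry12 and Trem2 clusters, and Mki67 and Top2a are lowest in the Marco cluster.

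Microglia-like cells fell into a P2ry12 cluster, with 9, 1, 6 and 12 cells in ADAM 1, ADAM 2, AD 1 and AD 2, and a Trem2 cluster, with 7, 9, 9 and 5 cells. P2ry12, the purinergic receptor of resting microglia, was at 1666, 793, 1600 and 1256 CPM (UMI counts scaled to a common total) in the P2ry12 cluster of ADAM 1, ADAM 2, AD 1 and AD 2, where the ADAM 2 value is that of 1 cell. In the Trem2 cluster P2ry12 was at 600, 449, 693 and 603 CPM in the same order of libraries. Trem2, a lipid-sensing receptor needed for the plaque-associated microglial state, was detected in 29 of the 30 cells of the Trem2 cluster, and Spp1 (osteopontin) in 12. At least 3 cycling markers were found in 56 of the 58 microglia-like cells. The summed disease-associated list was divided by the summed homeostatic list. This ratio was 0.697, 1.54, 0.417 and 0.547 in microglia-like cells of ADAM 1, ADAM 2, AD 1 and AD 2. These values mix both clusters in parts that differ between libraries. Within the Trem2 cluster the ratio was 1.08, 1.82, 0.574 and 1.003 in ADAM 1, ADAM 2, AD 1 and AD 2. Within the P2ry12 cluster it was 0.511, 0.745, 0.277 and 0.431 in the same order, the ADAM 2 value being that of 1 cell. The ratio was 0.448, 0.650, 0.363 and 0.412 in the authors' microglia state 0 of ADAM 1, ADAM 2, AD 1 and AD 2, and 2.41, 3.13, 3.11 and 3.18 in their state 5. Cdkn1a, which encodes the cycle inhibitor p21, was at 161 and 216 CPM in microglia-like cells of ADAM 1 and ADAM 2, against 804 and 362 CPM in AD 1 and AD 2, and did not pass the test (log2 fold -1.52, SE 0.39, edgeR adjusted p = 0.278). The fold was -0.82 without AD 1 (adjusted p = 0.981) and -1.69 without ADAM 2 (adjusted p = 0.0236). In state 0 microglia Cdkn1a was between 40.2 and 48.0 CPM in all 4 libraries.

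T-like cells fell into a Gzmb cluster, with 7, 8, 14 and 13 cells in ADAM 1, ADAM 2, AD 1 and AD 2, and an Xcl1 cluster, with 6, 4, 8 and 3 cells. Gzmb, the cytotoxic protease granzyme B, was detected in 28 of the 42 cells of the first and in 5 of the 21 of the second. The chemokine gene Xcl1 was detected in 17 of 21 cells of the second, where Cxcr6 and Itgae, genes of tissue-resident T cells, were detected in 16 and 7 cells. In T-like cells Cd8a and Cd8b1 made up 98.6%, 100%, 97.0% and 93.1% of the Cd8 and Cd4 UMIs of ADAM 1, ADAM 2, AD 1 and AD 2. The shares were 98.6%, 99.3%, 94.0% and 98.9% in the T and NK class. By cells, 42 of the 63 T-like cells had UMIs of Cd8a or Cd8b1 only, 8 of Cd4 only, 1 of both and 12 of neither. In ADAM 2, 5 of 12 cells had neither. Gamma delta T cell genes had 58 UMIs in the T-like cells. At least 3 cycling markers were found in 41 of 42 cells of the Gzmb cluster and in 6 of 21 of the Xcl1 cluster, whose median cell had 1.

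**Figure D3:**
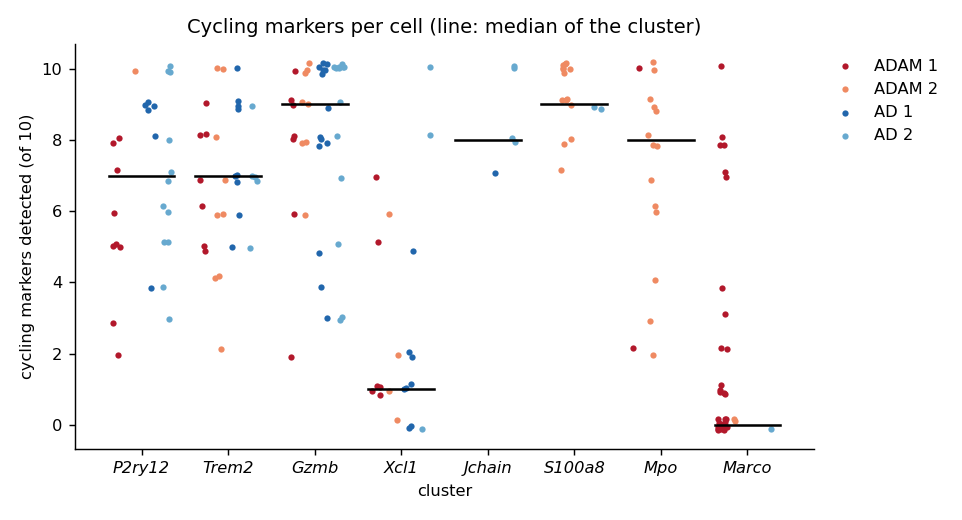
Number of the 10 cycling markers with a UMI (vertical axis) in each Proliferating cell (points, coloured by library, jittered), by cluster (horizontal axis); black lines are cluster medians. Medians are 7 to 9 in 6 clusters, 1 in the Xcl1 cluster and 0 in the Marco cluster.

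**Figure D4:**
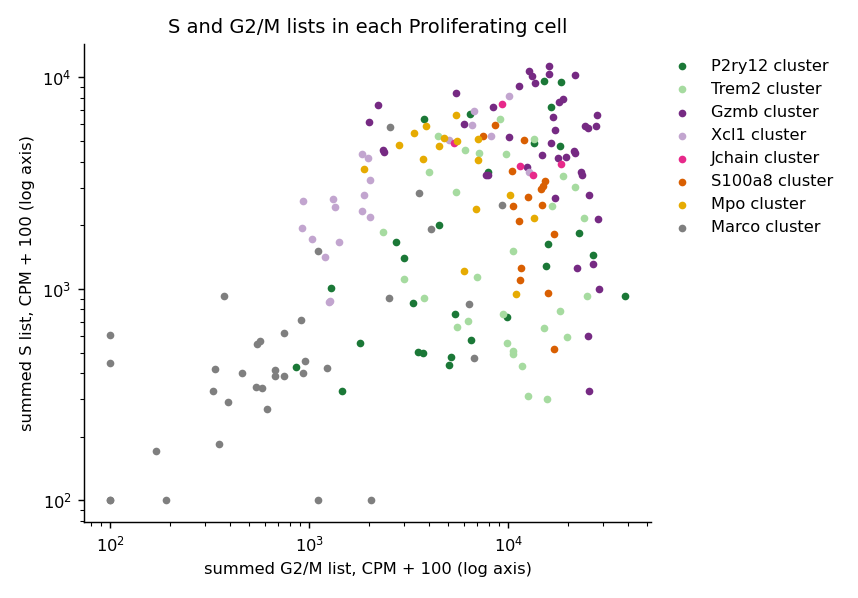
Summed level of the S phase list (vertical) against that of the G2/M list (horizontal) in each Proliferating cell, both in CPM + 100 on log axes, coloured by cluster. Cells of the Xcl1 cluster lie left of most cells of the Gzmb cluster, and most cells of the Marco cluster lie low on both axes.

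The S list made up 48.4% of the cycle UMIs (S and G2/M lists together) in the Xcl1 cluster and 39.2% in the Mpo cluster, against 21.7% in the Gzmb cluster, 19.2% in the S100a8 cluster, 17.7% in the Trem2 cluster and 15.6% in the P2ry12 cluster. This share is a ratio, and the level of the S list itself was lower in the Xcl1 cluster, at 3418 CPM, than in the Gzmb cluster, at 4774 CPM, while the G2/M list was at 3644 and 17184 CPM. The share was above that of the Gzmb cluster and the S level below it in each of the 4 libraries, so the share gives no order of the clusters in the cycle.

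The neutrophil-like S100a8 cluster had 14 cells in ADAM 2, 2 in AD 2 and none in ADAM 1 or AD 1. Its cells carried the granule protease genes Prtn3 (16 of 16 cells) and Elane (15 of 16), which are made early in granulocyte development, and also Ly6c2 (16 of 16), a monocyte marker. Camp, a later granule gene, had 1213 UMIs there, all from 2 cells. Chil3 and F13a1, from the monocyte and macrophage marker lists, were among its leading genes. By the rule of at least 2 markers of 1 lineage and of no other, 15 of its cells were mixed and 1 was neutrophil. That rule also called 63.9% of the authors' neutrophil class mixed. The lineage rules held no monocyte list, so the name does not tell neutrophil from monocyte precursors. The Mpo cluster had 2 cells in ADAM 1 and 14 in ADAM 2, and none in AD 1 or AD 2. It carried the progenitor genes Myb (16 of 16 cells), Cd34 (14 of 16) and Kit (12 of 16) beside Mpo, the myeloperoxidase gene (13 of 16), and stays unnamed. ADAM 2 was also the library with the most cells in the authors' neutrophil class, 580 cells, against 11 in ADAM 1, 30 in AD 1 and 136 in AD 2; the part of this in the cluster sizes was not tested.

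The 5 B-like cells came from AD 1 (1 cell) and AD 2 (4 cells), and none of the 115 cells of ADAM 1 and ADAM 2 was B-like, which allows a share of up to 2.61%. All 5 had UMIs of Jchain, which joins secreted antibodies, of Igha, the constant region of IgA, and of S1pr2 and Rgs13, which are known from germinal centre B cells. Ighm and Ighd, the IgM and IgD genes, had no UMI in the 5 cells, and Ighm was detected in 106 of the 115 cells of the B class. Igha, S1pr2 and Rgs13 were chosen after their values were seen.

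The Marco cluster went against the label. It held 32 cells of ADAM 1, 2 of ADAM 2, none of AD 1 and 1 of AD 2, and 27 of its 35 cells had fewer than 3 cycling markers. Marco, a scavenger receptor gene, had UMIs in 24 of the 32 ADAM 1 cells (3317 CPM) and in none of the others of the cluster. Cd5l, Vsig4 and Timd4, genes known from tissue macrophages outside the brain, had UMIs in 28, 24 and 23 of the 32 cells. The microglial P2ry12 had a UMI in 12 of the 35 cells, against 28 of 28 in the P2ry12 cluster. Of 7 macrophage markers all had UMIs in the cluster (632 CPM summed), and of 10 microglia markers all had UMIs (4552 CPM summed, C1qa the highest). ADAM 1 had 247 Marco UMIs in other classes, against 12 in ADAM 2, 0 in AD 1 and 3 in AD 2.

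The class made up 1.86% of classed cells in ADAM 1 (exact 95% interval 1.43 to 2.38%) and 1.38% in ADAM 2 (1.03 to 1.80%), against 1.22% in AD 1 (0.867 to 1.67%) and 0.917% in AD 2 (0.656 to 1.25%). Both ADAM libraries were above both AD libraries. The fold was 0.60 on the log2 scale (SE 0.44), which edgeR's quasi-likelihood test over the 9 classes did not call (adjusted p = 0.442). Without the Marco, Mpo and neutrophil-like clusters the log2 fold was -0.52 (adjusted p = 0.576), and with cells of at least 2 Mki67 and Top2a UMIs after thinning every cell to 2000 UMIs it was -0.21. In a sorted sample, more cells of a class and fewer cells of the others cannot be told apart. By clusters, microglia-like cells numbered 16 and 10 in ADAM 1 and ADAM 2, against 15 and 17 in AD 1 and AD 2. They were 25.4% and 19.2% of the class in ADAM 1 and ADAM 2, against 39.5% and 42.5% in AD 1 and AD 2, and an exact permutation test of 2 against 2 libraries gave its smallest possible two-sided p of 0.333. Of the cells outside the Marco, Mpo and neutrophil-like clusters they were 55.2% and 45.5% in ADAM 1 and ADAM 2, against 39.5% and 45.9% in AD 1 and AD 2, a count added after seeing the data, so the direction by clusters depends on those 3 clusters. The rule written for this comparison, at least 2 markers of 1 lineage and of no other, gave 58.7% and 3.85% in ADAM 1 and ADAM 2, against 39.5% and 37.5% in AD 1 and AD 2 (difference -7.20 percentage points, p = 1, exact permutation test). That difference was 20.2 without ADAM 2 and 6.44 with lineage given by most marker UMIs. The rule placed only 66.3% of the authors' microglia and 42.9% of their T and NK cells in their own lineage.

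Between the genotypes, edgeR called 6 of 7124 genes over the summed class (0.0842%), 2 higher (0.0281%) and 4 lower (0.0561%) in ADAM, with 622 at an unadjusted p under 0.05. The UMIs of these genes lay mostly in clusters that the libraries fill unevenly. Saa3, an acute phase gene, was at 816 and 257 CPM in ADAM 1 and ADAM 2, against 0 and 2.01 CPM in AD 1 and AD 2, a ratio of 404 with a 95% counting interval of 72.3 to 15967 (adjusted p = 0.0350). Of its 881 UMIs in ADAM cells, 673 were in the Marco cluster and 204 in the S100a8 cluster. Outside the class Saa3 was also higher in ADAM 1 and ADAM 2, at 336 and 6041 CPM in the monocyte class, against 5.94 and 1.69 CPM in AD 1 and AD 2. Clec4e, the innate receptor Mincle, was at 174 and 87.2 CPM in ADAM 1 and ADAM 2, against 3.43 and 4.01 CPM in AD 1 and AD 2 (ratio 33.3, interval 11.2 to 163, adjusted p = 0.0350). Igkc, the kappa light chain, was at 5.11 and 1.06 CPM in ADAM 1 and ADAM 2, against 329 and 634 CPM in AD 1 and AD 2 (log2 fold -7.12, SE 0.66, adjusted p = 0.0196), and 385 of its 412 AD UMIs were in the B-like cells. Cd79a, Rgs13 and Mzb1, B lineage genes, had no UMI in ADAM cells and were at least 70.5-fold, 47.3-fold and 77.8-fold lower there, taking 3 UMIs over the group as the floor. They passed the filter on low counts through AD alone. All their UMIs were in the 5 B-like cells, of which AD 1 gave 1 and AD 2 gave 4. Without the Marco cluster edgeR called no gene (324 at an unadjusted p under 0.05), with log2 folds of -6.62 for Igkc, -8.83 for Cd79a, -8.30 for Rgs13 and -8.94 for Mzb1. Without the Marco, Mpo and neutrophil-like clusters together all 4 were called (edgeR adjusted p 0.00659, 0.0445, 0.0445 and 0.0490). Both of these fits kept the B-like cells, so they cannot part the calls from those cells. No fit without the B-like cells was run. In limma-voom none was called over the whole class (532 at an unadjusted p under 0.05).

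Cycle genes had lower levels over the summed ADAM class, and none passed the test. Mki67 was at 101 and 252 CPM in ADAM 1 and ADAM 2, against 426 and 479 CPM in AD 1 and AD 2 (log2 fold -1.21, SE 0.46, edgeR adjusted p = 0.479). Its log2 fold was -0.25 without the Marco, Mpo and neutrophil-like clusters and -0.69 without ADAM 1, and it was called without ADAM 2 (-2.03, edgeR adjusted p = 4.5e-08). Top2a was at 185 and 476 CPM in ADAM 1 and ADAM 2, against 645 and 832 CPM in AD 1 and AD 2 (log2 fold -1.01, adjusted p = 0.612), with log2 folds of -0.22 without the 3 clusters, -0.47 without ADAM 1 and -1.86 without ADAM 2 (edgeR adjusted p = 6.12e-07). Of 50 tested genes of the G2/M list none was called; 49 had a negative fold, with a median of -0.79 against 0.03 for all genes tested, and 42 were lower in both ADAM libraries than in both AD libraries, as were 26.5% of all genes. The G2/M median was -0.38 without ADAM 1 and -1.32 without ADAM 2. Of 42 S list genes none was called, and 18 were lower without overlap (median -0.22, which was 0.09 without ADAM 1 and -0.81 without ADAM 2). Counting both directions, 40.2% of all genes did not overlap between the genotypes. The Marco cluster, which carries few cycle UMIs, lies mainly in ADAM 1. Without it alone the log2 fold was -0.92 for Mki67 and -0.72 for Top2a. Without the Mpo and neutrophil-like clusters alone it was -0.59 and -0.55. The Mpo cluster gave 365681 of the 940781 UMIs of ADAM 2, with Mki67 at 93.0 CPM, and had no cells in AD 1 or AD 2. The part of each cluster in the folds was not tested. The microglia-like and T-like sets hold no cells of the Marco or Mpo clusters. In microglia-like cells Mki67 was at 173 and 357 CPM in ADAM 1 and ADAM 2, against 682 and 465 CPM in AD 1 and AD 2 (edgeR adjusted p = 0.528). In ADAM 2 it was at 1374.5 CPM in the 1 cell of the P2ry12 cluster and at 95.3 CPM in the 9 cells of the Trem2 cluster. That 1 cell held 427 of the 1047 G2/M list UMIs of these ADAM 2 cells. In microglia-like cells 17 of 42 tested G2/M genes were lower without overlap (median -0.50), as were 24.4% of all genes there. That median was -0.06 without ADAM 1, -0.89 without ADAM 2 and -0.19 without AD 1. In T-like cells Mki67 was at 249 and 630 CPM in ADAM 1 and ADAM 2, against 297 and 458 CPM in AD 1 and AD 2, and the groups overlapped; 9 of 36 G2/M genes were lower without overlap (median -0.15), as were 22.1% of all genes there. That median was 0.06 without AD 2, -0.52 without ADAM 2 and -0.49 without AD 1.

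Within the microglia-like clusters, edgeR called 2 of 2336 genes (0.0856%), 1 in each direction (0.0428% each), with 197 at an unadjusted p under 0.05. Gatm, the first enzyme of creatine synthesis (2:122594467-122611303 in GENCODE vM21, GRCm38), rose to 1406 and 1050 CPM in ADAM 1 and ADAM 2, against 275 and 286 CPM in AD 1 and AD 2 (log2 fold 2.22, SE 0.31, adjusted p = 0.00225). Gatm was at 1177 and 996 CPM in state 0 microglia of ADAM 1 and ADAM 2, against 141 and 144 CPM in AD 1 and AD 2. Mertk, deleted in ADAM mice, lies on the same chromosome at 2:128698956-128802894. The call was lost without AD 1 (adjusted p = 0.0749) and without AD 2 (0.159). The other call, chosen after its value was seen, was the noncoding Gm42047, which fell to 11.5 and 21.6 CPM in ADAM 1 and ADAM 2, against 265 and 205 CPM in AD 1 and AD 2 (log2 fold -3.76, SE 0.56, edgeR adjusted p = 0.00225). No lower gene was called by DESeq2, by limma-voom or without AD 1.

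Axl, the deleted receptor, was at 17.3 and 0 CPM in microglia-like cells of ADAM 1 and ADAM 2, against 50.9 and 54.0 CPM in AD 1 and AD 2, from 3 UMIs in ADAM and 15 in AD. Mertk was at 288 and 368 CPM in ADAM 1 and ADAM 2, against 163 and 254 CPM in AD 1 and AD 2 (adjusted p = 0.611), and a 3′ count outside a deleted part does not check the allele. Spint1, a protease inhibitor gene on the same chromosome as Mertk, had no UMI in the ADAM cells and 23 in the AD cells, at least 7.20-fold lower.

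The genes with the next lowest p in microglia-like cells are given as values and did not pass the test. They were taken only from genes without overlap between the genotypes (42.1% of all genes there), so their lack of overlap is no result. Gas6, the ligand of Axl and Mertk, was at 144 and 336 CPM in ADAM 1 and ADAM 2, against 61.1 and 27.0 CPM in AD 1 and AD 2 (edgeR adjusted p = 0.0858). The lysosomal gene Cd63 was at 899 and 1591 CPM in ADAM 1 and ADAM 2, against 387 and 492 CPM in AD 1 and AD 2. Ctsl, also lysosomal, was at 2570 and 2998 CPM, against 1466 and 1297 CPM. In the disease-associated list 21 of 23 tested genes had a positive fold (median 0.63, against -0.01 for all genes tested) and 17 were higher without overlap, as were 17.8% of all genes; none was called. Of the homeostatic list 19 of 20 had a negative fold (median -0.21), and the median was 0.13 without ADAM 2. ADAM 2 also had 1396 CPM of neutrophil markers in these cells (S100a9 the highest), against 113 to 142 CPM in the other libraries. The Trem2 cluster gave 7 of 16 and 9 of 10 microglia-like cells in ADAM 1 and ADAM 2, against 9 of 15 and 5 of 17 in AD 1 and AD 2. Its disease-associated list was at 60812 CPM, against 34504 CPM in the P2ry12 cluster. The part of the neutrophil markers and of this cluster mix in the microglia-like values was not tested.

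**Figure D5:**
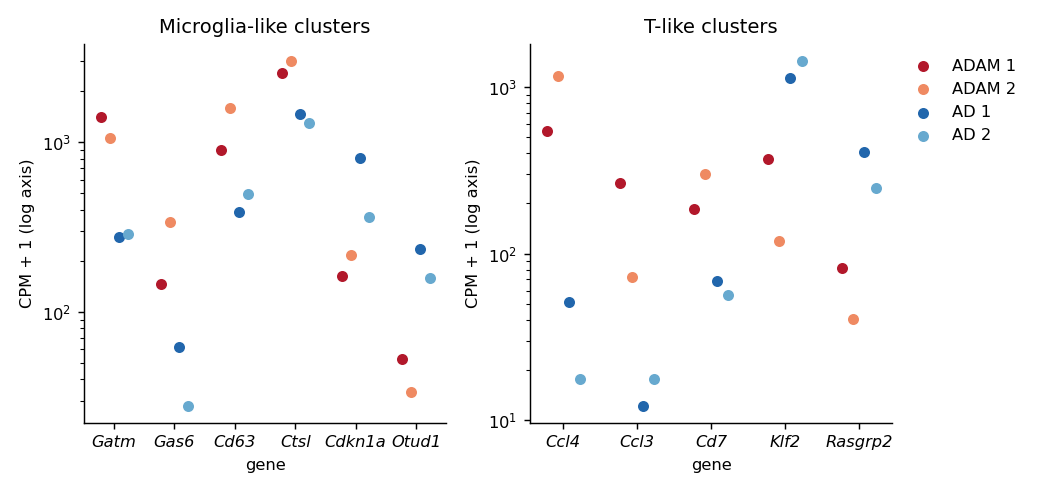
Level of named genes in the microglia-like (left) and T-like (right) clusters as CPM + 1 on a log axis, 1 point per library. Gatm and Ccl4 are the genes called among those drawn. The others are shown as values and were chosen only from genes whose ADAM and AD points do not overlap.

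Within the T-like clusters edgeR called 1 of 2350 genes (0.0426%), with 144 at an unadjusted p under 0.05. Ccl4, a chemokine of activated T cells, rose to 547 and 1158 CPM in ADAM 1 and ADAM 2, against 50.5 and 16.6 CPM in AD 1 and AD 2 (log2 fold 4.70, SE 0.51, adjusted p = 0.00803). Its UMIs came from 3 of 13 and 5 of 12 cells in ADAM 1 and ADAM 2, against 6 of 22 and 3 of 16 cells in AD 1 and AD 2, so a few cells carried the level. In microglia-like cells Ccl4 was at 812 and 1039 CPM in ADAM 1 and ADAM 2, against 2086 and 1496 CPM in AD 1 and AD 2, and was not called. In the T and NK class Ccl4 was at 224 and 443 CPM in ADAM 1 and ADAM 2, against 232 and 290 CPM in AD 1 and AD 2, which overlap. The call was lost without ADAM 2 (adjusted p = 0.323) and in limma-voom (0.481).

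The following T-like values did not pass the edgeR test. Ccl3, Klf2 and Rasgrp2 were taken only from genes without overlap between the genotypes (37.7% of all genes there). Ccl3, a related chemokine, was at 266 and 70.9 CPM in ADAM 1 and ADAM 2, against 11.2 and 16.6 CPM in AD 1 and AD 2. Klf2, a factor that keeps T cells quiescent and circulating, was at 370 and 118 CPM in ADAM 1 and ADAM 2, against 1134 and 1430 CPM in AD 1 and AD 2 (edgeR adjusted p = 0.171). DESeq2 called Klf2 (adjusted p = 0.000322) and limma-voom did not (adjusted p = 0.370). Rasgrp2, an activator of integrin signalling, was at 80.5 and 39.4 CPM in ADAM 1 and ADAM 2, against 404 and 248 CPM in AD 1 and AD 2 (adjusted p = 0.0589). In the T cell activation and cytotoxicity list 0 of 14 tested genes was called, with 6 positive and 8 negative folds. Its abundant members Ccl5 and Nkg7 overlapped between the genotypes. Gzma, which encodes granzyme A, was at 16.1 and 3694 CPM in ADAM 1 and ADAM 2, against 606 and 210 CPM in AD 1 and AD 2, a spread within ADAM larger than the gap between genotypes.

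The S list share of cycle UMIs over the whole class was 29.0 and 25.4% in ADAM 1 and ADAM 2, against 23.2 and 20.4% in AD 1 and AD 2, a difference of 5.41 percentage points (p = 0.333, exact permutation test, two-sided, the smallest this design gives). After thinning to 2000 UMIs a cell the difference was 0.710, and in the microglia-like clusters alone it was 0.529.

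An interaction tested whether the genotype difference in Proliferating cells taken as microglia by the rule of at least 2 markers differed from that in the other microglia. Of the 69 cells so taken, 42 were microglia-like by clusters and 26 were cells of the Marco cluster, most of which lack cycling markers, so the result does not describe cycling microglia alone. edgeR called 59 of 11038 genes (0.535%), 41 positive and 18 negative, but ADAM 2 gave only 2 cells under that rule, and without AD 2 no gene was called (380 at an unadjusted p under 0.05). Gatm was not among the called genes (log2 difference -1.87, edgeR adjusted p = 0.247). In simulated data this test called only 0.5% of genes changed by 4-fold, so a missing call at this size shows no lack of difference.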

How the data were processed

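The authors deposited raw UMI counts of 16798 genes in 15451 cells. Their cell table gives library, class, microglia state, doublet marks, the mitochondrial percent deposited by the authors (not used in a comparison), and a doublet score and embedding scores deposited by the authors, which were not used. The submitters' processing notes list mm10, Seurat 3.2.1.9002 and Cell Ranger 3.1.0, with no role stated, and the filters on cells were not stated. The class, its members and the gene lists were chosen with earlier results of these data known.

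UMI counts were summed per library; totals over the class were 782931, 940781, 291361 and 498696 in ADAM 1, ADAM 2, AD 1 and AD 2. Libraries were the replicates. edgeR 4.0.16 (TMM, filterByExpr with minimum count 10, quasi-likelihood, Benjamini-Hochberg at 0.05) was fitted over all genes; CPM are without TMM. The tests within lineages that needed 20 cells per library could not be run on any set; the cluster sets, of at least 10 cells per library, were chosen after seeing the data. DESeq2 1.42.0 and limma 3.58.1 were alternatives. Cells were clustered with scanpy 1.11.5 (1500 variable genes, 15 components, 12 neighbours, resolution 0.8); no doublet caller was run, and the authors' marks were used. Named genes were Axl, Mertk, genes called earlier in microglia, Mki67, Top2a, called genes (up to 12 per direction) and list members. Where fewer than 5 were called, the 5 lowest p per direction were also named. These came only from genes with a mean of at least 50 CPM and no overlap between the genotypes. In simulated data for the class comparison with 7124 genes, 35.0% of 200 genes changed by 4-fold and 100% of those changed by 16-fold were called. Unchanged genes called there numbered 1 and 15. For the interaction with 11038 genes, 0.5% of 200 genes changed by 4-fold and 75.5% of those changed by 16-fold were called. Unchanged genes called there numbered 0 and 2. Same-numbered libraries did not deviate together (correlation 0.0057 over the class). A result on 1 gene is not reported here.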

Additional observations from a re-analysis of the deposited data

Results flagged for a closer look

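In 59 of 11038 genes the genotype difference in Proliferating cells taken as microglia by the rule of 2 markers differed from that in the other microglia (edgeR interaction, adjusted p under 0.05; 0.535% of genes tested; 806 at an unadjusted p under 0.05). Led by Mmp12 (log2 difference 7.60), Cxcl10 (-5.08) and Lgals3 (4.45), these values rest on 37 and 2 cells in ADAM 1 and ADAM 2, against 15 and 15 cells in AD 1 and AD 2. Of these 69 cells, 26 were cells of the Marco cluster, most of which lack cycling markers. The count was 2 without AD 1 and 0 without AD 2.

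Cells that the authors marked as doublets enter no comparison. At least 3 cycling markers were found in 15 of 196 and 14 of 312 such cells in ADAM 1 and ADAM 2, against 6 of 134 and 5 of 181 in AD 1 and AD 2. These cells held 830 and 210 Marco UMIs in ADAM 1 and ADAM 2, against 0 in both AD libraries, and 404 and 96 Cd5l UMIs, against 1 and 0.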

How the results depend on the processing

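Over the class, where edgeR called 6 genes, DESeq2 called 67, limma-voom 0, no filter on low counts 340 and the replicate block 80; leaving out 1 library gave 12 to 778. Without the Marco, Mpo and neutrophil-like clusters 10 were called, and without the Marco cluster 0. In the microglia-like clusters (2 called), DESeq2 and limma-voom called 1 each, no filter 13, most-marker-UMI cells 5, and leaving out 1 library gave 0 to 46. In the T-like clusters (1 called), DESeq2 called 2, limma-voom 0, no filter 21, the replicate block 19, and leaving out 1 library gave 0 to 62. For the interaction (59 called), DESeq2 called 29 and limma-voom 34, and leaving out 1 library gave 0 to 463. The class share reversed to -0.21 for thinned Mki67 and Top2a cells and to -0.52 without the 3 clusters. The difference in S list share moved to 0.710 when thinned, 1.12 as a mean over cells, 0.529 in microglia-like and 3.09 in T-like clusters, and leaving out 1 library gave 3.59 to 7.22. The cause of these changes was not tested. Among genes, Mertk over the class reversed with limma-voom (-0.047) and the replicate block (-0.020), and leaving out 1 library gave -0.77 to 0.65; Top2a in microglia-like cells ran from -1.55 to 0.22, and in T-like cells Mki67 ran from -0.52 to 0.77 and Top2a from -0.69 to 0.30. Replicate numbers share only a number. The microglia-like share of the class, by the rule of 2 markers, turned from -7.20 to 6.44 by most marker UMIs and to 0.781 by 1 marker, and leaving out 1 library gave -34.6 to 20.2.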

Other observations

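Cells with at least 3 cycling markers were also found in other classes. The microglia class held 9 and 5 of them in ADAM 1 and ADAM 2, against 1 and 9 in AD 1 and AD 2. In the monocyte class they were 7 of 148 and 8 of 220 cells in ADAM 1 and ADAM 2, against 0 of 91 and 0 of 104 in AD 1 and AD 2. The macrophage class held 3, all in ADAM 2, and the B class 2, both in AD 2. These counts were not tested.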
